A study of Capra hircus with 12 samples.

Results

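Secondary hair follicles (SHFs) of Liaoning cashmere goats were compared between mid-anagen in September, when the cashmere fibre grows, and catagen in November and December, when growth stops. The members are all miRNAs with more than 5 CPM, the count scaled to the library total, in at least 2 of these 6 libraries. Of the listed miRNAs, 271 passed and 105 did not. The question was which of them can be shown to stay within 2-fold across this transition, and which lean higher or lower. Of the 271, 221 were shown to stay within 2-fold, and 19 had an unadjusted p under 0.05. A share of about 0.05 would be expected to pass that threshold if nothing changed. One of the 19, miR-106a-5p, had an adjusted p under 0.05 and a change above 2-fold, but it was a member only through its catagen libraries and the call did not hold in most other settings.

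The hair cycle runs from growth (anagen) through regression (catagen) to rest (telogen). During catagen the matrix cells of the hair bulb stop dividing, and the lower follicle regresses by apoptosis while the dermal papilla is kept. miRNAs are short RNAs that guide the silencing complex to matching sites in mRNAs, which lowers the stability and translation of those mRNAs. In hair follicles the enzymes that make miRNAs are needed for normal follicle growth and cycling, and miR-31, miR-205, miR-214 and miR-125b are among the miRNAs with known roles in follicle epithelium. miR-31 and miR-205 were not analysed here.

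The goats were 1.5 years old and carried no treatment or engineered allele. Each month had 1 library of female and 1 of male goats, so September had 2 libraries and catagen 4, 2 from November and 2 from December. The study took 3 goats of each sex at each time point from back skin, cut away the epidermis and connective tissue and separated the SHFs from the primary follicles. How the goats were combined into libraries is not given in the sources used here, so p-values measure the spread between these libraries. In such bulk samples, fewer cells of a type and less RNA per cell cannot be told apart. Mid-anagen was sampled only in September and catagen only in November and December. Hair phase therefore cannot be told apart from season or sampling date.

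The 6 libraries held 3455772 to 5401442 miRNA counts, so that 3 counts correspond to 0.555 to 0.868 CPM, and the 271 members took 99.98% of the counts in each. Of the members, 252 have a goat miRNA name and 19 are candidates known by number. At the limit of 5 CPM, the second-highest library stood at 4.90 CPM for miR-16b-3p and 4.89 CPM for miR-26b-3p, just outside, and at 5.11 CPM for novel_586 and novel_206 and 5.21 CPM for miR-25-5p, just inside. There were 9 members with more than 5 CPM in no September library, before TMM scaling, and none with that level in no catagen library. Such members passed only through the catagen libraries, so their higher level there is partly fixed by the choice. Of these 9, miR-106a-5p and miR-628-5p had an unadjusted p under 0.05. With these 9 included, 30 members had more than 5 CPM in fewer than 2 September libraries, and 6 in fewer than 2 catagen libraries. The 30 could not pass without catagen libraries, and novel_176, which also had an unadjusted p under 0.05, was among them. The median absolute log2 difference over the members was 0.20 between both September libraries, 0.20 to 0.30 among the 6 pairs of catagen libraries and 0.22 to 0.33 among the 8 pairs across the groups. The widest pairs were those with the December female library, which was the highest of the 6 for 62 members and the lowest for 56.

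Levels below are TMM-normalised CPM, and log2 fold changes are catagen over September from edgeR, with the standard error (SE) and a 95% interval. A miRNA counted as shown to stay within 2-fold when 2 one-sided tests, against -1 and 1 on the log2 scale, both passed after adjustment over the 271 miRNAs. A miRNA that failed was not thereby shown to change. By this rule 221 miRNAs (81.5%) were held within 2-fold and 39 (14.4%) within 1.5-fold. The median absolute log2 fold change was 0.18 and the median SE was 0.24, and 139 of the 271 changes (51.3%) were below 0. TMM scaling places the typical change near 0, so the near-even split follows largely from the scaling. Staying within 2-fold is relative to the other miRNAs, and a change in total miRNA content could not be seen.

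Abundant miRNAs were held most closely. The 30 most abundant were all shown to stay within 2-fold, as were 57 of the 59 with a mean of 1000 CPM or more, the exceptions being miR-101-3p and miR-374b-5p. The share was 57 of 63 between 100 and 1000 CPM, 73 of 91 between 10 and 100 CPM and 34 of 58 below 10 CPM. The median SE over these classes grew from 0.17 in the most abundant to 0.35 in the least abundant. Across miRNAs, which share libraries and are not independent, Spearman's rho of mean CPM and SE was -0.67. Of the 19 numbered candidates, 13 were shown to stay within 2-fold.

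**Figure D1:**
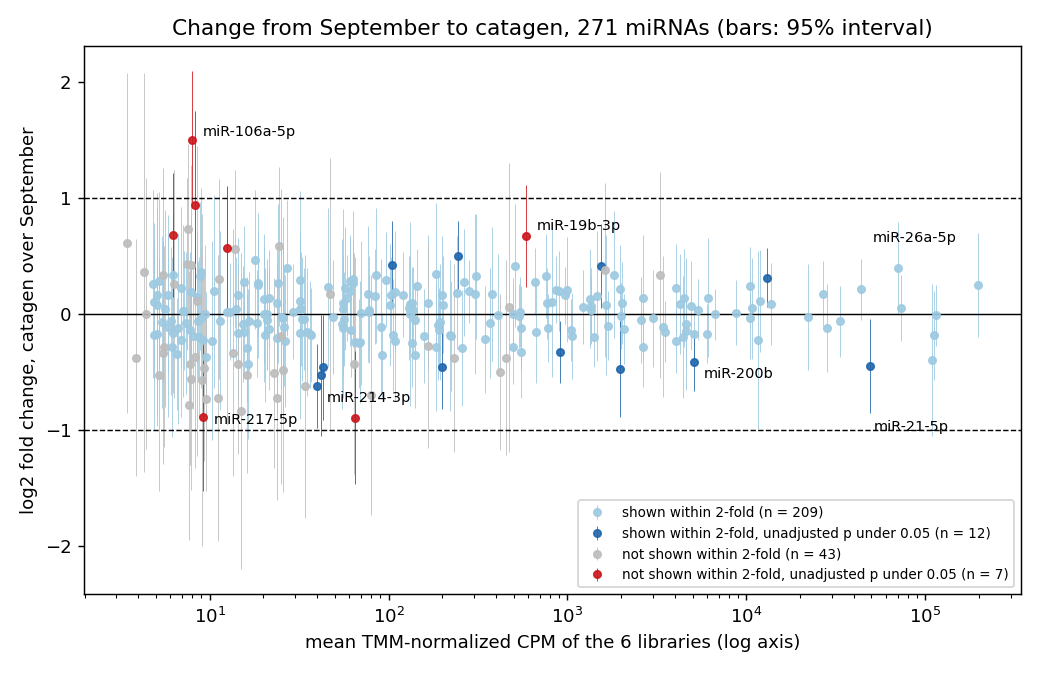
Each point is 1 of the 271 miRNAs, with its mean TMM-normalised CPM over the 6 libraries on a log axis and its log2 fold change, catagen over September, with a 95% interval; dashed lines mark 2-fold. The intervals widen to the left, 221 miRNAs are drawn as shown to stay within 2-fold, and miR-106a-5p at 1.51 is the only one whose fitted change exceeds 2-fold.

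miR-103-3p, often proposed as a reference miRNA for qPCR, was held most tightly. It stood at 6732 and 6658 CPM in the female and male September libraries, 7024 and 6545 CPM in November and 6822 and 6334 CPM in December. The groups overlapped, and the log2 fold change was -0.003 (95% interval -0.22 to 0.21), so the interval held the change to 1.16-fold. miR-27b-3p, the miRNA with the second-highest level, stood at 106537 and 123813 CPM in September and 108789 to 118969 CPM in catagen, inside the September range. Its log2 fold change was -0.01 (SE 0.12). miR-24-3p, which represses the stem cell factor TCF3 in hair follicle keratinocytes, stood at 5108 and 5421 CPM in September and 5110 to 5627 CPM in catagen. miR-125b-5p, a brake on the differentiation of hair follicle stem cells, stood at 533.7 and 543.7 CPM in September and 510 to 556 CPM in catagen, with a log2 fold change of -0.02 (SE 0.13). miR-199b-5p, of a family found in mesenchyme, changed by 0.01 (SE 0.13) on the log2 scale, and miR-7-5p by -0.01 (SE 0.13). For each of these 6, the miRNAs with the smallest equivalence p, the 95% interval held the change to 1.23-fold or less.

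The 10 most abundant miRNAs were all shown to stay within 2-fold, and 4 of them within 1.5-fold. miR-26a-5p, a regulator of the histone methyltransferase EZH2, was the most abundant, at 186951 and 162754 CPM in September against 172924 to 227791 CPM in catagen. Its groups overlapped, with a log2 fold change of 0.25 (SE 0.21). miR-143-3p stood at 122868 and 121234 CPM in September and 98187 to 115960 CPM in catagen, so every catagen library was lower, but the change of -0.19 (SE 0.18) was within the spread between libraries (unadjusted p = 0.309, edgeR's quasi-likelihood test). miR-148a-3p had the widest interval of the 10, at 151099 and 108366 CPM in September and 65255 to 115751 CPM in catagen, where the December female library was the low one. Its log2 fold change was -0.40 (95% interval -1.05 to 0.26), and it only just passed (equivalence test, adjusted p = 0.0428), failing in 6 of 15 other settings. The one-sided tests allow such an interval to reach slightly past 2-fold. let-7f-5p, let-7g-5p and let-7i-5p, of the family that lowers growth-promoting mRNAs such as HMGA2, changed by 0.05, 0.21 and -0.06 on the log2 scale. miR-99a-5p, which represses mTOR, changed by -0.12 (SE 0.17).

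miR-203, the keratinocyte miRNA that represses the stem cell factor p63 as cells differentiate, came near the lean threshold. It stood at 49109 CPM in the female and 66710 CPM in the male September library, 84746 and 70759 CPM in November and 84264 and 65605 CPM in December. The male December library lay below the male September library, so the groups overlapped. The log2 fold change was 0.40 (SE 0.18, unadjusted p = 0.052), and the miRNA was shown to stay within 2-fold.

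**Figure D2:**
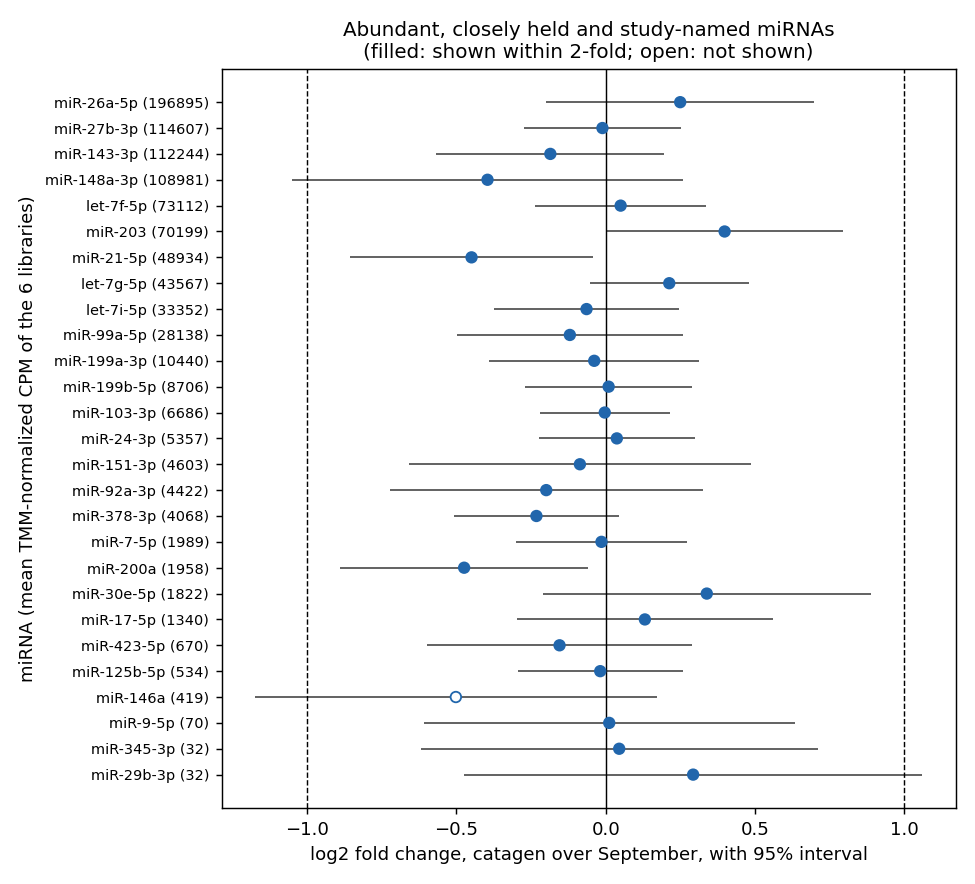
Log2 fold change, catagen over September, with a 95% interval for the 10 most abundant miRNAs, the 6 with the smallest equivalence p and the 16 that the study names, some of which fall in several of these sets; mean CPM is in parentheses and dashed lines mark 2-fold. All but miR-146a (open circle, -0.50) were shown to stay within 2-fold, and the interval is narrowest for miR-103-3p.

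miR-106a-5p was the only miRNA past both thresholds, 1 of 271 or 0.369%. Since it passed the 5 CPM limit only through the catagen libraries, where it is high, its values are given as a description rather than as support for a change. It belongs to the miR-17 family, which shares its seed with miR-17, miR-20a, miR-93 and miR-106b and favours cell-cycle progression. Its level was 3.74 and 3.48 CPM in the female and male September libraries, 11.5 and 6.87 CPM in November and 12.1 and 10.4 CPM in December. These values rest on 18 and 16 counts in September and 23 to 53 counts in catagen. All catagen libraries lay above both September libraries. The fitted level was 2.84-fold higher in catagen (log2 fold change 1.51, SE 0.27, 95% interval 0.91 to 2.10, adjusted p = 0.0356 by edgeR's quasi-likelihood test). It had 6.76 to 8.41 CPM in the telogen libraries and 7.38 to 8.24 CPM in May, so both September libraries were also below all of these. With no filter on low counts the adjusted p was 0.0538, and with the filter on all 12 libraries it was 0.0696. The direction held in 15 of 15 other settings, with an adjusted p of 0.00612 to 0.469. The call was lost with library totals as the scaling, with only the 6 libraries in the fit, with limma-voom, with sex as a block, with either of the other low-count filters, and when any single library other than the November male one was left out (0 called in each). miRNAs of this family differ by few bases, and how reads that match several of them were assigned is not given in the sources used here.

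Of the miRNAs named as sharing the seed of miR-106a-5p, the 5p arms of miR-17, miR-20a, miR-93 and miR-106b were all shown to stay within 2-fold. On the log2 scale miR-93-5p changed by 0.06 (SE 0.15) and miR-106b-5p by 0.08 (SE 0.19). miR-17-5p stood at 1126 and 1395 CPM in September and 1116 to 1771 CPM in catagen, with a log2 fold change of 0.13 (SE 0.20). miR-19b-3p, which shares a cluster with miR-17 but has another seed, was at 399 and 443 CPM in September, 720 and 574 CPM in November and 764 and 634 CPM in December. All 4 catagen libraries were higher, but the log2 fold change of 0.68 (SE 0.20) did not pass adjustment (unadjusted p = 0.00676, adjusted p = 0.305). Its partner miR-19a was at 13.3 and 23.2 CPM in September and 19.6 to 39.2 CPM in catagen, with overlapping groups and a log2 fold change of 0.59 (SE 0.32). Over the miR-17-92 and miR-106b-25 clusters, 12 of 14 members were shown to stay within 2-fold, the exceptions being miR-19a and miR-19b-3p, and the median log2 fold change was 0.09 beside -0.004 over all 271. miR-92a-3p of the same cluster was at 5812 and 3864 CPM in September and 3335 to 4932 CPM in catagen, a log2 fold change of -0.20 (SE 0.24).

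The miRNAs with an unadjusted p under 0.05 are described as leaning, since apart from miR-106a-5p none of them passed adjustment (adjusted p of 0.239 or more, edgeR's quasi-likelihood test). Of the 271 miRNAs, 9 leaned higher in catagen (3.32%) and 10 leaned lower (3.69%). If no miRNA changed, a share of about 0.05 would still be expected at an unadjusted p under 0.05. Many of these miRNAs could therefore lean without any change. From November to December, both in catagen, 3.32% were higher and 1.11% lower at this threshold. For each of the 19 the groups did not overlap. Over all members, 23 (8.49%) had every catagen library above both September libraries and 36 (13.3%) had both September libraries above every catagen library. Of the 19, 12 were shown to stay within 2-fold all the same. All 19 had the same direction in the 15 other settings. These settings reuse the same libraries and the groups did not overlap, so this agreement was largely fixed in advance. The unadjusted p stayed under 0.05 in every setting with both September libraries for miR-200b, miR-214-3p, miR-19b-3p, miR-181b-5p and miR-217-5p. The same held for novel_494, novel_54 and miR-106a-5p. The last of these was a member only through its catagen libraries.

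Among those leaning lower were 3 members of the miR-200 family, which holds epithelial identity by repressing ZEB1 and ZEB2. miR-200b stood at 6103 and 6177 CPM in September, 4406 and 4346 CPM in November and 5200 and 4477 CPM in December. Every catagen library was lower, with the December female library nearest to September, and the log2 fold change was -0.41 (SE 0.11, unadjusted p = 0.00289). miR-200a stood at 2595 and 2220 CPM in September, 1609 and 1851 CPM in November and 1955 and 1516 CPM in December, a log2 fold change of -0.47 (SE 0.19). miR-429 lies on the same chromosome as both in the RefSeq goat annotation (ARS1.2). It stood at 52.1 and 53.9 CPM in September, 36.9 and 24.8 CPM in November and 47.9 and 36.9 CPM in December. Its log2 fold change was -0.53 (SE 0.24), and it kept an unadjusted p under 0.05 in 6 of 15 other settings. The other pair of the family, miR-200c and miR-141, lies on another chromosome. miR-200c stood at 5604 and 5372 CPM in September and 4274 to 5267 CPM in catagen, also lower in every catagen library, with a log2 fold change of -0.17 (SE 0.11). miR-141 stood at 154.03 and 163.79 CPM in September and 135 to 227 CPM in catagen, with a log2 fold change of 0.09 (SE 0.27). All 5 members were shown to stay within 2-fold, although miR-429 only just passed (equivalence test, adjusted p = 0.0464) and failed in 10 of 15 other settings.

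miR-214-3p, which represses beta-catenin and with it the Wnt signal in follicle keratinocytes, stood at 51.9 and 52.6 CPM in September, 32.3 and 35.6 CPM in November and 33.1 and 34.7 CPM in December. The libraries of each group lay close together, and the level was 1.54-fold lower in catagen (log2 fold change -0.62, SE 0.17, 95% interval -0.99 to -0.26, unadjusted p = 0.00245, adjusted p = 0.239). The other arm of its precursor, miR-214-5p, stood at 52.5 and 58.2 CPM in September and 58.6 to 68.2 CPM in catagen, above September in every library, with a log2 fold change of 0.20 (SE 0.22). Both arms were shown to stay within 2-fold, which for miR-214-3p failed in 4 of 15 other settings.

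miR-21-5p, an abundant miRNA that represses PDCD4 and rises in many injured tissues, stood at 51197 and 67925 CPM in September, 41971 and 46042 CPM in November and 44103 and 42363 CPM in December. The catagen libraries were close to one another while both September libraries were apart, and the log2 fold change was -0.45 (SE 0.19, unadjusted p = 0.031). Without the September male library the log2 fold change was -0.23. miR-181b-5p, a regulator of NF-kappaB signalling, stood at 247 and 239 CPM in September and 162 to 196 CPM in catagen, a log2 fold change of -0.46 (SE 0.17). miR-183, from a cluster needed in sensory cells, stood at 1013 and 1097 CPM in September and 777 to 917 CPM in catagen, a log2 fold change of -0.33 (SE 0.12). miR-374b-3p stood at 50.2 and 54.3 CPM in September and 29.6 to 47.5 CPM in catagen. Its log2 fold change was -0.46 (SE 0.21), while that of the other arm, miR-374b-5p, was 0.38 (SE 0.35). With library totals as the scaling, the unadjusted p of miR-374b-3p was 0.098 (edgeR's quasi-likelihood test).

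The fitted changes furthest below 0 were those of novel_494 and miR-217-5p, neither of which was shown to stay within 2-fold. The candidate novel_494 stood at 116 and 72.3 CPM in September, 50.7 and 35.9 CPM in November and 66.9 and 48.1 CPM in December. Its lowest September value was close to the highest catagen value, and the log2 fold change was -0.90 (SE 0.26, unadjusted p = 0.00441). Without the September female library the log2 fold change was -0.52. miR-217-5p stood at 14.5 and 11.9 CPM in September, 6.58 and 5.98 CPM in November and 5.93 and 9.93 CPM in December, a log2 fold change of -0.89 (SE 0.29, unadjusted p = 0.00958). It had 17.6 to 30.8 CPM in telogen and 27.5 to 33.7 CPM in May, so its catagen libraries were the lowest of the 4 phases.

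Those leaning higher included let-7b-5p, at 10953 and 11584 CPM in September, 13866 and 12845 CPM in November and 13494 and 15757 CPM in December. Its log2 fold change was 0.31 (SE 0.12, unadjusted p = 0.0218), the smallest among the 19 in size. miR-30b-5p, of a family that restrains autophagy and epithelial-mesenchymal transition, stood at 1182 and 1325 CPM in September, 1483 and 1612 CPM in November and 1873 and 1717 CPM in December. Each catagen library was above September, the December ones most, and the log2 fold change was 0.42 (SE 0.17). miR-130a-3p stood at 89.3 and 81.5 CPM in September and 105 to 119 CPM in catagen, a log2 fold change of 0.43 (SE 0.17), and its other arm, miR-130a-5p, changed by 0.56 (SE 0.31). The candidate novel_54 stood at 179 and 205.5 CPM in September and 264 to 288 CPM in catagen, with the catagen libraries close together and a log2 fold change of 0.51 (SE 0.14, unadjusted p = 0.00374). let-7b-5p, miR-30b-5p, miR-130a-3p and novel_54 were shown to stay within 2-fold.

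The remaining 3 were scarce and were not shown to stay within 2-fold. miR-497-5p, of the miR-15/16 family that slows the cell cycle, stood at 8.93 and 9.99 CPM in September, 11.9 and 13.2 CPM in November and 18.7 and 12.1 CPM in December, a log2 fold change of 0.57 (SE 0.25). With library totals as the scaling, its unadjusted p was 0.0572 (edgeR's quasi-likelihood test). miR-628-5p stood at 3.94 and 5.0 CPM in September and 5.98 to 7.95 CPM in catagen, a log2 fold change of 0.68 (SE 0.25), and it too was a member only through its catagen libraries. The candidate novel_176 stood at 4.36 and 5.87 CPM in September and 5.93 to 12.9 CPM in catagen, a log2 fold change of 0.94 (SE 0.38). Its September female library was under 5 CPM, so it needed catagen libraries to be a member and its lean is partly fixed by the choice. Its lowest catagen library was barely above September. Each of them rested on fewer than 100 counts in every library.

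**Figure D3:**
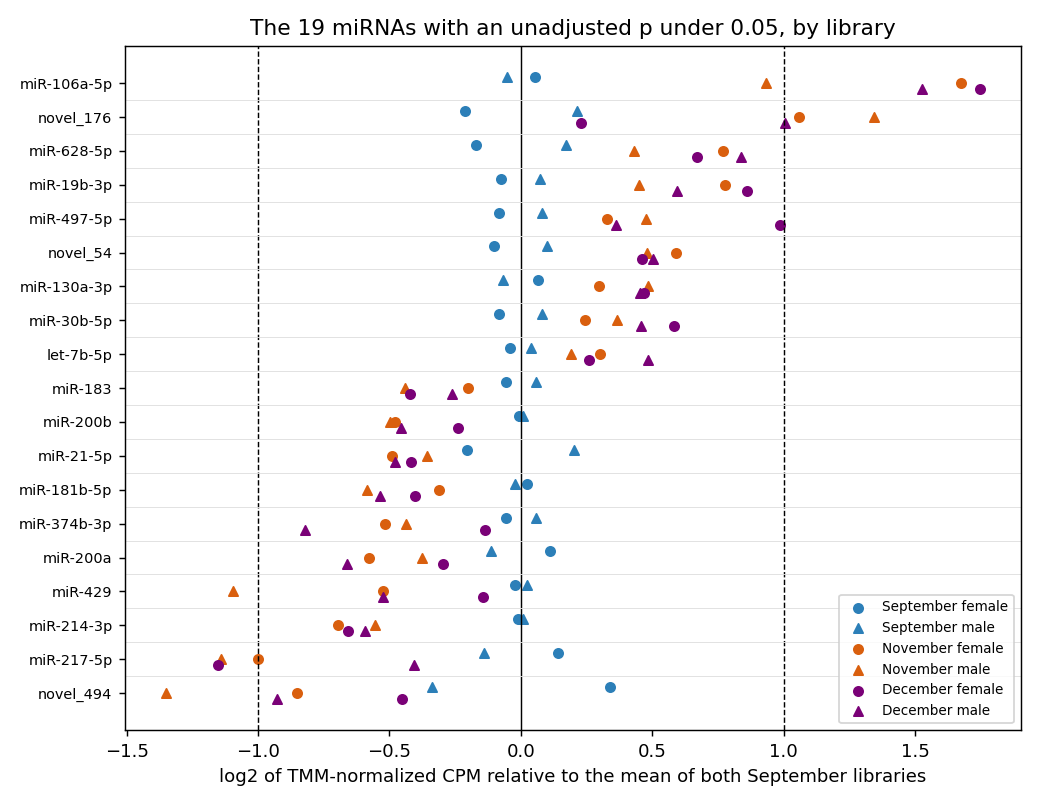
For each of the 19 leaning miRNAs, the log2 of TMM-normalised CPM in each of the 6 libraries relative to the mean of both September libraries, with circles for female and triangles for male libraries; dashed lines mark 2-fold and the vertical offset of points within a line is for display only. Catagen points lie to one side of both September points for every miRNA, furthest out for miR-106a-5p and with the smallest gap for novel_176.

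Lists of miRNAs with known roles were then read against these shares. Of 12 members of a list of hair cycle regulators (miR-22, miR-24, miR-29a, miR-29b, miR-125b, miR-195, miR-214 and miR-218), all were shown to stay within 2-fold, 1 leaned lower (miR-214-3p), and the median log2 fold change was 0.01. Of 9 dermal mesenchyme members (miR-143, miR-145, miR-199a, miR-199b and miR-214), all were shown to stay within 2-fold, with a median of 0.01. Of 7 epidermal members, 6 were shown to stay within 2-fold and 3 leaned lower, all of them in the miR-200 family. The epidermal median was -0.17, and its sum stood at 64075 and 81162 CPM in September and 77310 to 97093 CPM in catagen, a sum made up mostly of miR-203. The epidermal exception was miR-184, an epithelial miRNA, at 458 and 466 CPM in September and 243 to 787 CPM in catagen. Its fitted change was near 0 (0.06), with an interval of -1.19 to 1.31 that reached past 2-fold on both sides.

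Of 16 members of let-7 and miR-98, 15 were shown to stay within 2-fold, 1 leaned higher (let-7b-5p) and the median log2 fold change was 0.08. All 9 members of the miR-30 family were shown to stay within 2-fold, with a median of 0.09. miR-29, which represses collagens, had 3 members, all shown to stay within 2-fold, and miR-29b-3p among them only just passed (log2 fold change 0.29, 95% interval -0.47 to 1.06; equivalence test, adjusted p = 0.0428) and failed in 8 of 15 other settings. The p53-induced miR-34a stood at 102.7 and 89.1 CPM in September and 96.8 to 118 CPM in catagen, and miR-34c-5p changed by 0.30 (SE 0.27). Both were shown to stay within 2-fold. Of 10 members of a list of qPCR reference candidates (miR-16, miR-103, miR-107, miR-191, miR-423 and miR-425), all were shown to stay within 2-fold, with log2 fold changes from -0.23 to 0.30. With upper-quartile scaling the median over all 271 moved to -0.17, and the medians of the hair cycle, dermal mesenchyme, let-7 and miR-30 lists moved below 0 with it (-0.16, -0.16, -0.09 and -0.08).

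The imprinted DLK1-DIO3 cluster, a run of miRNAs made from the maternal chromosome and known for roles in development and stem cells, had 8 of 26 members shown to stay within 2-fold, beside 221 of 271 overall. None was called or leaned, 21 had a log2 fold change below 0, the median was -0.38 and the range was -0.79 to 0.42. The median SE was 0.40 beside 0.24 over all members. The sum over the cluster was 1303 and 1402 CPM in the female and male September libraries, 871 and 1129 CPM in November and 931 and 1274 CPM in December. Every catagen library was below both September libraries, and the male library was the higher in each month. The count of 8 rose to 14 in a fit of only the 6 libraries and fell to 3 without the September female and 4 without the September male library. Examples are miR-411a-3p, with a log2 fold change of -0.79 (95% interval -1.95 to 0.37), and miR-127-3p, at -0.38 (95% interval -1.19 to 0.43), whose intervals covered both no change and a fall of more than 2-fold.

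**Figure D4:**
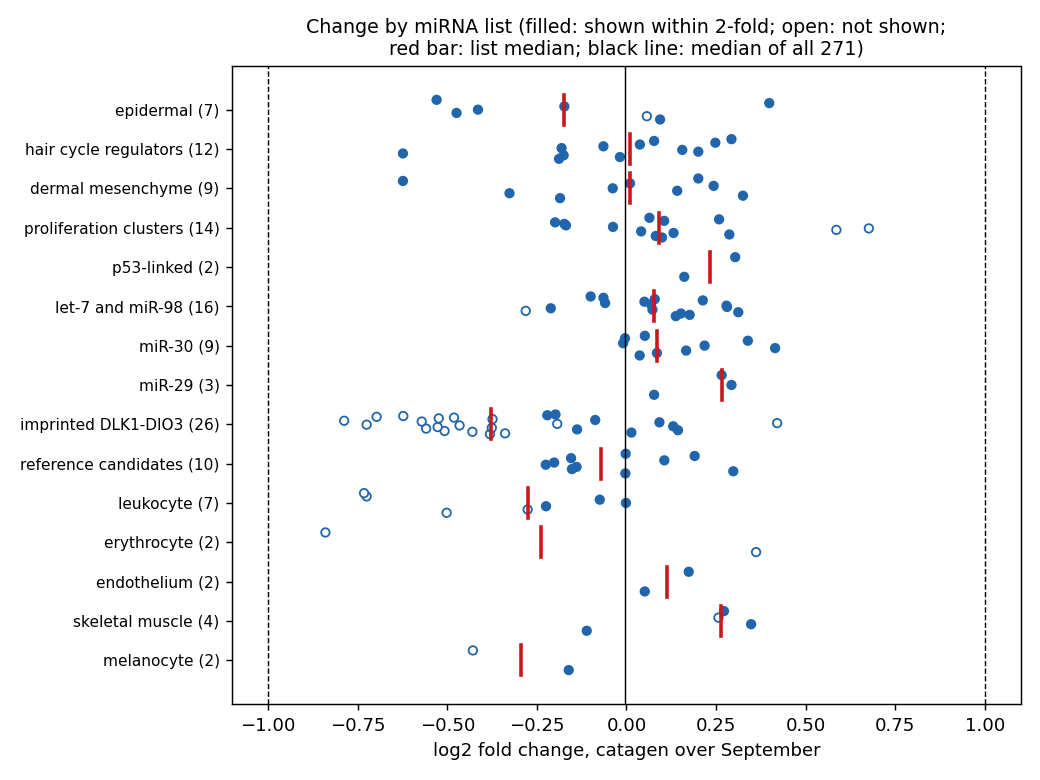
Log2 fold change, catagen over September, of each member of the role and marker lists, filled where it was shown to stay within 2-fold and open where not; red bars are list medians, the black line is the median of all 271, dashed lines mark 2-fold, list sizes are in parentheses, and vertical offset is for display only. Open circles gather in the imprinted DLK1-DIO3 list (18 of 26), while all hair cycle, dermal mesenchyme, miR-30 and reference members are filled.

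Marker miRNAs of other cells were read in the same libraries. The keratinocyte markers are the epidermal list without miR-184 and the fibroblast markers are the dermal mesenchyme list, so they add no separate evidence. All 6 and 9 were shown to stay within 2-fold, 3 of the keratinocyte markers leaned lower, and without the September male library 3 of those 6 and 7 of the 9 were shown to stay within 2-fold. Of 7 leukocyte members, which include both arms of miR-223 and of miR-146b, 3 were shown to stay within 2-fold. All 7 had a log2 fold change below 0 (median -0.28), beside 51.3% of all members, but the value nearest 0 was -0.001. With RLE size factors or DESeq2, 6 of the 7 were below 0. The sum over the 7 was 13762 and 14590 CPM in September and 10241 to 15923 CPM in catagen, and these ranges overlapped. The myeloid miR-223-3p stood at 25.5 and 39.8 CPM in September, 10.9 and 18.2 CPM in November and 24.4 and 24.7 CPM in December, a log2 fold change of -0.73 (SE 0.41). Erythrocyte miR-451-5p stood at 28.4 and 14.3 CPM in September, 6.26 and 4.18 CPM in November and 13.9 and 22.3 CPM in December, with a change of -0.84 and an interval of -2.21 to 0.53. The endothelial miR-126-3p and miR-126-5p were shown to stay within 2-fold, as were 3 of 4 skeletal muscle members and 1 of 2 melanocyte members. The liver marker miR-122 was listed but did not pass 5 CPM in 2 libraries. The part of these cells in the leaning miRNAs was not tested.

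The miRNAs that the study names were mostly held across this transition. miR-30e-5p stood at 1419 and 1679 CPM in September, 1636 and 1659 CPM in November and 2863 and 1677 CPM in December, with the December female library apart from the rest and a log2 fold change of 0.34 (SE 0.25). miR-199a-3p changed by -0.04 (SE 0.16), miR-151-3p by -0.09 (SE 0.26) and miR-378-3p by -0.23 (SE 0.13), and all 4 were shown to stay within 2-fold. miR-9-5p, which is best known from neural cells, stood at 65.8 and 73.0 CPM in September, 108 and 58.9 CPM in November and 58.0 and 55.8 CPM in December. Its change was 0.01 (SE 0.29), since the November female library was higher than September and the other 3 catagen libraries were below it. miR-423-5p and miR-345-3p changed by -0.15 (SE 0.20) and 0.05 (SE 0.31), and both were shown to stay within 2-fold. The exception was miR-146a, a brake on NF-kappaB signalling that leukocytes express, at 430.5 and 612 CPM in September, 349 and 413 CPM in November and 411.7 and 299.3 CPM in December. Every catagen library was lower, and the log2 fold change was -0.50 (95% interval -1.17 to 0.17; equivalence test, adjusted p = 0.0771).

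Each catagen month was also set against September in a fit with a group for every month. No miRNA was called in either comparison by edgeR's quasi-likelihood test, with 13 at an unadjusted p under 0.05 in November (4 higher, 1.48%, and 9 lower, 3.32%) and 19 in December (12 higher, 4.43%, and 7 lower, 2.58%). The smallest adjusted p was 0.403 in November and 0.0901 in December, both for miR-106a-5p, with log2 fold changes of 1.34 (SE 0.32) and 1.64 (SE 0.31). Shown to stay within 2-fold were 196 miRNAs (72.3%) in November, 190 (70.1%) in December and 175 in both. miR-214-3p changed alike in both months, by -0.62 (SE 0.22) and -0.62 (SE 0.22). Both comparisons use the same September libraries, so agreement between them is not separate evidence. miR-429 changed by -0.78 (SE 0.28) in November and -0.32 (SE 0.27) in December, a difference between months that did not pass (unadjusted p = 0.156).

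Between November and December no miRNA was called, 12 had an unadjusted p under 0.05 (9 higher in December, 3.32%, and 3 lower, 1.11%, with a smallest adjusted p of 0.737), and 180 (66.4%) were shown to stay within 2-fold. Both erythrocyte miRNAs were among the 12. miR-144-5p stood at 1.32 and 2.09 CPM in November and 7.07 and 7.72 CPM in December (log2 fold change 2.11, SE 0.78). It passed the 5 CPM limit, before TMM scaling, only through its December libraries, so this rise is partly fixed by the choice. miR-451-5p differed by 1.80 (SE 0.69). miR-144-5p had 3.32 and 4.13 CPM in September, between both months, and had the widest interval of all members in the catagen comparison (-1.36 to 2.09). miR-374b-5p was 0.85 higher in December on the log2 scale (SE 0.32), with 2999 CPM in the female and 1542 CPM in the male library.

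The change was also fitted within each sex, with 1 September and 2 catagen libraries of each, so each value rests on a single September library, assumed to vary like the other groups, and the examples below are values rather than shown differences. The difference between the sexes was called for no miRNA by edgeR's quasi-likelihood test (smallest adjusted p = 0.832), and 11 had an unadjusted p under 0.05. miR-203 was among them, with a log2 fold change of 0.78 in female and 0.03 in male libraries (unadjusted p = 0.0175). miR-17-5p changed by 0.51 in female and -0.27 in male libraries (unadjusted p = 0.0198), and miR-20a-5p of the same cluster was at 2545 and 3565 CPM in September, 2986 and 2561 CPM in November and 3857 and 2501 CPM in December. For both, the September female library was below the male one while both catagen female libraries were above their male partners. For none of the 271 was the difference between the sexes shown to be within 2-fold, so these data do not show that the sexes change alike.

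For 43 miRNAs the data showed neither a lean nor stability. They include miR-101-3p, the most abundant of them, at 2999 and 2634 CPM in September, 2775 and 3336 CPM in November and 5062 and 3065 CPM in December. Its December female library stood apart, and the interval was -0.55 to 1.22 around a log2 fold change of 0.34. After miR-144-5p, the widest intervals were those of novel_586 (-0.86 to 2.08), miR-409-5p (-2.0 to 0.86), miR-451-5p, miR-2318 (-1.22 to 1.45) and miR-3958-3p (-1.47 to 1.08). Of the 50 miRNAs not shown to stay within 2-fold, 34 had a fitted change under 1.5-fold.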

How the data were processed

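Small RNA libraries of SHFs from 6 months, 12 in all, were used. The authors aligned trimmed reads to CHIR_2.0 and called miRNAs using miREvo together with mirDeep2. The submitters' processing notes name Bowtie 0.12.9. Raw counts per miRNA and TPM were deposited, and the deposited TPM matches the count scaled to the library total within 0.005, so only the counts were analysed. Months were grouped as labelled into telogen (4 libraries), May (2), September (2) and catagen (4).

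Counts were fitted in R 4.3.3 with edgeR 4.0.16 (TMM, quasi-likelihood test) over the 12 libraries, whose 4 groups pool 1 estimate of the spread. miRNAs over 5 CPM in at least 2 of the 6 compared libraries were kept. P-values were adjusted by Benjamini-Hochberg, and a call needs an adjusted p under 0.05 and 2-fold. Equivalence to within 2-fold used 2 one-sided t statistics with the fit's SE, and the 95% intervals use the same SE, so they can differ slightly from the quasi-likelihood p. Differences between pairs of libraries are of log2(CPM + 1). The steps were tested on simulated data, with 100 miRNAs changed 4-fold, 100 changed 2-fold and 71 unchanged. Of those changed 4-fold, 99 were called, and of those changed 2-fold, 0 were shown to stay within 2-fold. Only 36 of the 71 unchanged were shown to stay within 2-fold, so in that setting many unchanged miRNAs failed the equivalence test. Alternatives were other scalings, filters, tools (DESeq2 1.42.0, limma 3.58.1), margins, a sex term and leaving out each library. Named miRNAs were the 10 most abundant, up to 8 leaning each way, the 6 smallest equivalence p, the 6 widest intervals, those the study names, and list members that lean or belong to lists of up to 8. miR-183, miR-19a, miR-20a-5p, miR-101-3p, miR-127-3p, miR-411a-3p and the other arms of leaning miRNAs were named after their values were seen. The members and lists were chosen with earlier results of these data known.

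Depth was 3455772 to 5401442 counts in the 6 libraries, where counting error is small for all but scarce miRNAs and the 2 September libraries limit the precision. miR-31, miR-205 and miRNA sequences were not analysed here.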

Additional observations from a re-analysis of the deposited data

Results flagged for a closer look

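In 5 of the 70 named miRNAs, 1 of the 4 catagen libraries stood apart from the other 3, with a gap to its nearest neighbour that took up more of the group's range than Dixon's 95% value of 0.829; chance gives about 1 in 20 such groups. For miR-30e-5p (0.967) and miR-200b (0.847) the December female library was the high one, at 2863 and 5200 CPM. For miR-9-5p (0.942) the November female library was high, at 108 CPM. For miR-217-5p (0.837) the December male library was high, at 9.93 CPM. For miR-199b-5p (0.891) the November female library was low, at 8039 CPM, a gap within a range of 8039 to 9007 CPM.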

How the results depend on the processing

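The 1 call, miR-106a-5p, was made with DESeq2, RLE size factors and upper-quartile scaling, but 0 miRNAs were called with library totals, only the 6 libraries in the fit, the filter on 12 libraries, no filter, limma-voom or sex as a block, and 0 to 1 when 1 library was left out. Upper-quartile scaling, added after seeing the data, moved the median log2 fold change to -0.17; 3 then leaned higher and 26 lower, in place of 9 and 10, so the split between higher and lower depends on the scaling. RLE gave 13 higher and 8 lower, and 14 leaned higher with the filter on 12 libraries. With 1 library left out, 5 to 11 leaned lower, with 6 without the September female, 5 without the September male and 6 without the November female library. Of 221 miRNAs shown to stay within 2-fold, 39 held at 1.5-fold. Other settings gave 164 to 235, with 167 and 164 without either September library, and 140 miRNAs were held in every one of 15 other settings. For the difference between the sexes, 11 miRNAs at an unadjusted p under 0.05 became 7 with library totals. The medians of the hair cycle, dermal mesenchyme, let-7, miR-30 and proliferation lists are below 0 with upper-quartile scaling. No result changed direction among the 19 leaning miRNAs, which their non-overlapping groups in these same libraries largely fixed in advance. The labels give sex but no replicate numbers; with sex as a block 224 miRNAs were held within 2-fold, and besides the call the counts stayed within 1.5 times. Depth limits the miRNAs below 10 CPM.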
